A study of Mus musculus with 1 sample.

Results

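Malat1, Neat1 and Kcnq1ot1 are long noncoding RNAs that stay in the nucleus, and their transcripts were described in lung alveolar macrophages (AMs) profiled by single-cell RNA-seq. They were taken by name and make up 3 of the 11918 genes in the table. The data come from 1 WT library of the study on the histone deacetylase HDAC3. The mice carried loxP-flanked Hdac3 alleles (Hdac3fl/fl) without Cre, were labelled wild-type, came from an FVB/NJ line crossed to C57BL/6 for 10 generations, and were 8 to 12 weeks old. CD45+CD11c+SiglecF+ cells were sorted, 5000 of them were loaded, and 10x Genomics 3′ libraries (v2 chemistry) were made. The cells came from 1 adult mouse of this genotype, and the HDAC3-deficient library is not analysed here. With 1 library there is no replicate, so no difference below was tested, and correlations across cells are descriptions with no p.

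Malat1 lies in nuclear speckles, bodies that store splicing factors, and is among the most abundant noncoding RNAs of most mouse tissues. Neat1 is the scaffold of the paraspeckle, a nuclear body built around its long isoform, and it is transcribed from the locus beside Malat1. Kcnq1ot1 is transcribed from the paternal allele antisense to Kcnq1 and silences neighbouring imprinted genes in cis. All 3 RNAs are retained in the nucleus, whereas mRNAs of ribosomal proteins are cytoplasmic, and mitochondrial transcripts lie inside the mitochondria. Cells whose membrane leaks can lose cytoplasmic RNA, which is why single-cell studies limit the mitochondrial share of a cell.

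In the 3′ method an oligo(dT) primer catches each RNA at a stretch of A, so the places where these transcripts hold one are shown. Sequences were read from GENCODE release M21 on GRCm38, the assembly also called mm10. Malat1 (chr19:5795690-5802672, minus strand, 1 exon of 6983 bases in its longest transcript) lies 22035 bases from Neat1 (chr19:5824708-5845478, minus strand), whose long isoform spans 20771 bases. The short, polyadenylated form of Neat1 was read from an annotated transcript of 2 exons and 3004 bases. Kcnq1ot1 (chr7:143203458-143296549, minus strand) is an unspliced antisense transcript of 93092 bases. Runs of at least 12 A on the transcribed strand were searched. Malat1 held 1 such run, the long and the short Neat1 held 0 (longest runs of 7 and 5 bases), and Kcnq1ot1 held 8. Of 141767 annotated transcripts 4.07% held such a run, and of the 7040 transcripts of at least 5000 bases 19.7% did. The Malat1 run is the A-rich tract encoded in the genome close to which the mature RNA ends, and shortly after it begins the tRNA-like small RNA that is cut from the precursor. Below are the Malat1 run with 30 bases on each side (chr19:5795958-5796029), the longest Kcnq1ot1 run (chr7:143226915-143227015), and the last 100 bases of the Malat1 (chr19:5795690-5795789), short Neat1 (chr19:5842307-5842406) and Kcnq1ot1 (chr7:143203458-143203557) transcripts, all from the minus strand. Capitals mark the A run or the polyadenylation signal AATAAA, which stood in the last 100 bases of 28.9% of 139316 transcripts.
Malat1 A run: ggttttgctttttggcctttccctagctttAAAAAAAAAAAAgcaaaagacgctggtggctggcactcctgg
Kcnq1ot1 longest A run: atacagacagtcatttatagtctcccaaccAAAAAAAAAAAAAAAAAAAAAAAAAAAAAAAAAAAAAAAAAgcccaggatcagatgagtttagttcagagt
Malat1 end: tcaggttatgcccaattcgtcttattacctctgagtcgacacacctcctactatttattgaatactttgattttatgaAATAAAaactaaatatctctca
Neat1 short end: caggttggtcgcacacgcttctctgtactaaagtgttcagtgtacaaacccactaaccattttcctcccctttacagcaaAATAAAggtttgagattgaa
Kcnq1ot1 end: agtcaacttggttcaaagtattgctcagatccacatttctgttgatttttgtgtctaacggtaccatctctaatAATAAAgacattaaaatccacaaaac

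The Malat1 run ended 298 bases before the annotated 3′ end, whereas the longest Kcnq1ot1 run, of 41 bases, ended 23487 bases before it. The values cannot tell which of these places a captured molecule came from. The share of 98-base sequences, the length of the cDNA read, that also occurs on either strand in a transcript of another gene was 5.17% for Malat1, 0.450% for the long Neat1 and 0.728% for Kcnq1ot1. The genes with the most such matches matched Malat1 and Kcnq1ot1 on the opposite strand, and Neat1 on the same strand. No annotated gene that overlaps the 3 loci, Kcnq1 included, is listed in the table.

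The library held 2055 cells and 7222978 UMIs (molecule barcodes, each counting 1 captured RNA), at 3278 in the median cell and 1143 to 8603 over all cells. Of 22 AM markers 21 were listed, and each had a UMI in 24.2% to 100% of cells; Siglecf, a gene of the sort gate, was seen in 41.4% and Itgax, which encodes CD11c, in 61.1%. In the median cell 3.21% of UMIs (range 0.0343% to 21.6%) fell on 13 genes of the mitochondrial genome and 14.1% (3.17% to 33.6%) on 85 ribosomal protein genes. Although the methods state a limit of 5% mitochondrial UMIs and the removal of Xist, Y chromosome genes and ribosomal structural protein genes, 384 cells (18.7%) were above that limit, and Xist and the ribosomal protein genes were listed. Results that rest on those cells are also given in the other 1671 cells, with groups formed again within them.

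Malat1 was the most abundant noncoding RNA of the 3 by far. It took 113096 UMIs, or 156.6 per 10000 (95% Poisson interval 155.7 to 157.5), and ranked 4 of all genes by UMIs, after Tmsb4x (238.6), Fth1 (168.4) and Lyz2 (165.0) and before Ftl1 (154.4). Neat1 took 2347 UMIs, 3.25 per 10000 (3.12 to 3.38), and ranked 497. Kcnq1ot1 took 1438 UMIs, 1.99 per 10000 (1.889 to 2.096), and ranked 810. UMIs count captured molecules, wherever the primer caught them, and are not divided by transcript length, so these are ranks of captured molecules. The intervals here and below cover counting error alone, within this library.

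Malat1 was detected in 2049 of 2055 cells (99.7%), with a median of 44 UMIs per cell and up to 329. Neat1 was detected in 1215 cells (59.1%, exact binomial interval 57.0% to 61.3%) with at most 14 UMIs, and Kcnq1ot1 in 873 cells (42.5%, 40.3% to 44.7%) with at most 13. Free RNA gives UMIs in cells that do not make a gene, and the sorted cells hold no other type in which to measure it for these RNAs. As a gauge, Sftpc, a surfactant gene of alveolar epithelial cells, had a UMI in 6.86% of the same cells.

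The Malat1 level differed widely between cells. In UMIs per 10000, the middle of the cells lay from 80.4 to 214.2 (quartiles) around a median of 129.5, the 5th and 95th percentiles were 34.2 and 436.6, and the highest cell reached 1469. The coefficient of variation left after removing the variance expected from counting was 0.645, against a median of 0.278 over the 564 genes with a mean of at least 1 UMI per cell, 37 of which were more spread. For the neighbours in abundance it was 0.239 for Tmsb4x, an actin-binding peptide gene, 0.365 for Fth1 and 0.392 for Ftl1, the ferritin chains, and 0.451 for Lyz2, which encodes lysozyme, while Actb reached 0.969. It was 0.661 for Neat1 and 0.898 for Kcnq1ot1, whose counts per cell are low. The 10% of cells with the highest Malat1 level held 20.98% of the Malat1 UMIs and 6.90% of all UMIs.

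**Figure D1:**
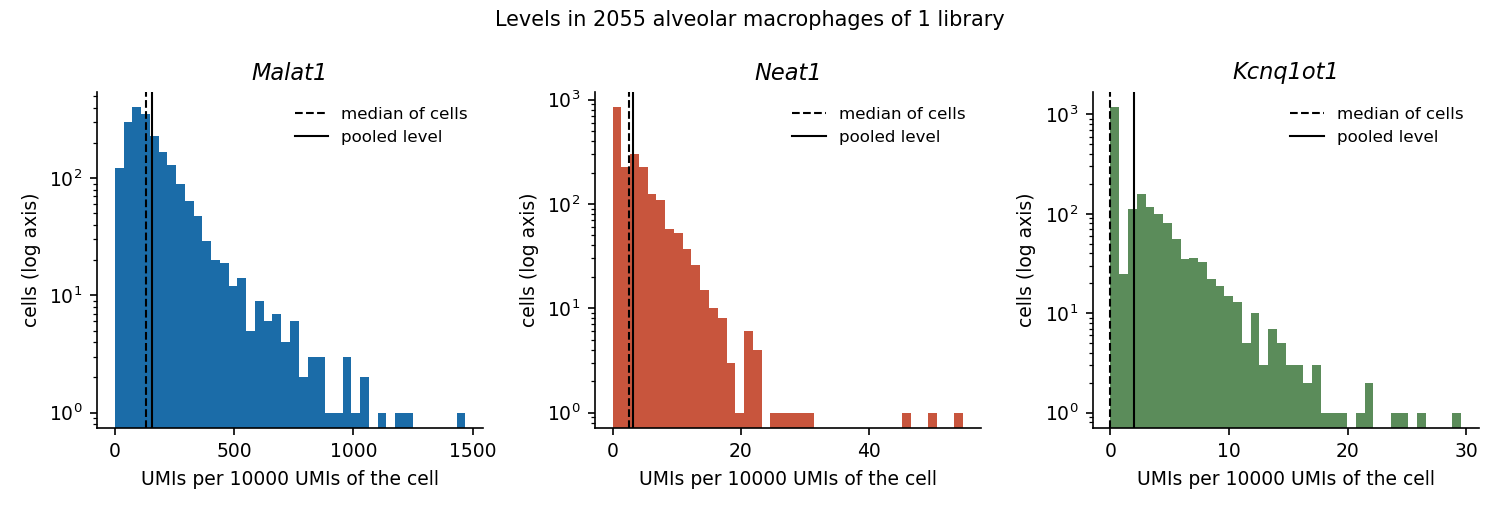
Levels of Malat1, Neat1 and Kcnq1ot1 in each of the 2055 cells (x axis, UMIs per 10000 UMIs of the cell; y axis, number of cells on a log axis; dashed line, median of cells; solid line, pooled level). Malat1 has a long upper tail to 1469, whereas the median cell has 2.52 for Neat1 and 0 for Kcnq1ot1.

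The 3 RNAs were higher in cells with a high mitochondrial share, and for Malat1 the difference lay mainly above 5%. Malat1 stood at 132.8 UMIs per 10000 (130.2 to 135.4) in 239 cells under 2% mitochondrial UMIs, at 137.0 in 643 cells from 2% to 3%, at 139.5 in 526 cells from 3% to 4% and at 148.3 in 262 cells from 4% to 5%. It then stood at 190.7 (187.7 to 193.8) in 235 cells up to 7.5%, at 276.4 (269.6 to 283.4) in 80 cells up to 10% and at 556.8 (544.0 to 569.8) in 70 cells from 10% up. The levels up to 4% lay close together, while the last was several times any of them. Neat1 went from 2.66 (2.30 to 3.06) under 2% to 9.53 (7.92 to 11.4) at 10% and above, and Kcnq1ot1 from 1.64 (1.36 to 1.96) to 6.74 (5.40 to 8.32). From 4% to 5% they already stood at 3.48 (3.12 to 3.88) and 2.28 (1.98 to 2.60).

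The counts of Malat1 molecules themselves, not just their share, were higher in these cells. The 70 cells at 10% and above had a median of 99.5 Malat1 UMIs per cell and of 1641.5 UMIs in total, against 44 and 3568.5 in the cells from 3% to 4%. Their ribosomal protein gene share was 6.20%, against 14.4%. For Neat1 and Kcnq1ot1 the median UMIs per cell were 1 in the first set, and 1 and 0 in the second.

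Across the 384 cells over the 5% limit, the pooled level was 248.1 for Malat1, 4.78 for Neat1 and 3.05 for Kcnq1ot1, that is 1.78, 1.62 and 1.71 times the levels of 139.1, 2.96 and 1.79 in the other 1671 cells. Xist, the nuclear RNA that coats the inactive X chromosome, stood at 1.43 times. Over all 2055 cells the Spearman correlation with the mitochondrial share was 0.252 for Malat1, 0.149 for Neat1 and 0.120 for Kcnq1ot1. The points share 1 library and sum to a fixed total per cell. The mitochondrial share was therefore taken over the UMIs other than those of the gene. The share of the gene was taken over all UMIs, so the dependence is only partly removed. Within the 1671 cells at or under the limit, the values were 0.0662, 0.0503 and 0.0479. The limit is set on the mitochondrial share itself and narrows its range, which lowers these values whatever the cells above it hold. Pearson correlations of the shares, which weigh the extreme cells more, were 0.592, 0.307 and 0.273 over all cells.

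**Figure D2:**
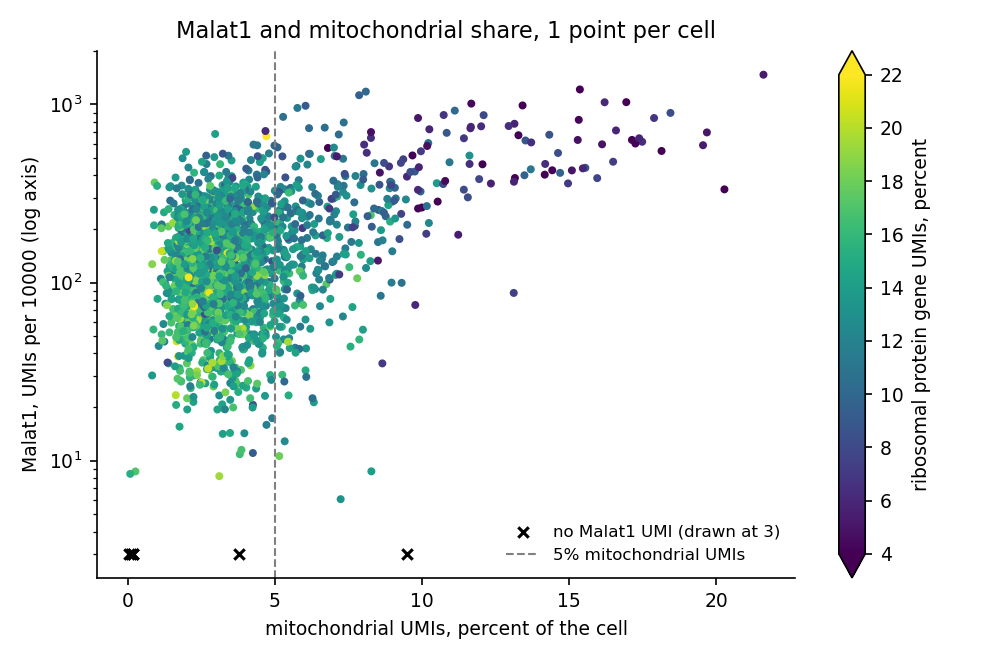
Malat1 level (y axis, UMIs per 10000, log axis) against the mitochondrial share (x axis, percent of UMIs), 1 point per cell, coloured by the ribosomal protein gene share in percent. Up to the dashed line at 5% the points form a broad cloud of little slope (Spearman 0.0662 in 1671 cells), and above 10% they lie high (pooled level 556.8) with low ribosomal protein gene shares; crosses are the 6 cells with no Malat1 UMI.

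Cells with a low ribosomal protein gene share held more of the 3 RNAs. Over 5 groups of 411 cells ordered by that share, Malat1 stood at 252.7, 163.9, 140.8, 129.5 and 115.9 UMIs per 10000, so that the lowest group was 2.18 times the highest. Neat1 went from 4.90 (4.51 to 5.31) to 2.60 (2.35 to 2.88), and Kcnq1ot1 from 3.07 (2.760 to 3.401) to 1.56 (1.37 to 1.78). The Spearman correlations were -0.352, -0.174 and -0.134. This share itself went with the mitochondrial share (-0.418), and the lowest group had a median mitochondrial share of 4.98%, against 2.67% in the highest.

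The order for Malat1 was kept within the cells at or under 5% mitochondrial UMIs. There it stood at 170.3 (167.9 to 172.8) in the group with the lowest ribosomal protein gene share and at 116.0 (114.1 to 118.0) in the highest, a ratio of 1.47, with a Spearman correlation of -0.217. Above the limit the ratio was 3.62 (513.1 against 141.7) and the correlation -0.598. For Neat1 the corresponding ratios were 1.40 and 2.71, and for Kcnq1ot1 1.34 and 3.98. The group with the highest ribosomal protein gene share above the limit had a Malat1 level of 141.7, beside 139.1 in all cells at or under it.

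Shallow cells held a higher share of Malat1. From the shallowest to the deepest of 5 groups by UMIs per cell, Malat1 stood at 235.5, 177.9, 145.8, 142.8 and 139.4 UMIs per 10000, with a Spearman correlation of -0.138. The last 3 groups differed little beside the first. Neat1 stood at 4.44 (3.96 to 4.95) in the shallowest and at 3.12 (2.90 to 3.35) in the deepest group, and Kcnq1ot1 at 2.72 (2.35 to 3.13) and 1.85 (1.68 to 2.03). Over the same groups the share of cells with a Neat1 UMI went the other way, from 49.4% to 75.7%, and that with a Kcnq1ot1 UMI from 32.6% to 54.3%. Spearman correlations with depth were 0.00462 for Neat1 and 0.0465 for Kcnq1ot1, and no order is read from them. Within the cells at or under 5% mitochondrial UMIs the correlation of Malat1 with depth was -0.0388, and its level was 160.8 (157.7 to 164.0) in the shallowest and 136.4 (134.8 to 138.0) in the deepest group, a ratio of 1.18 against 1.69 over all cells. Neat1 stood there at 3.07 (2.65 to 3.53) and 3.01 (2.77 to 3.26) and Kcnq1ot1 at 1.69 (1.39 to 2.04) and 1.86 (1.68 to 2.06), with intervals that overlap.

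**Figure D3:**
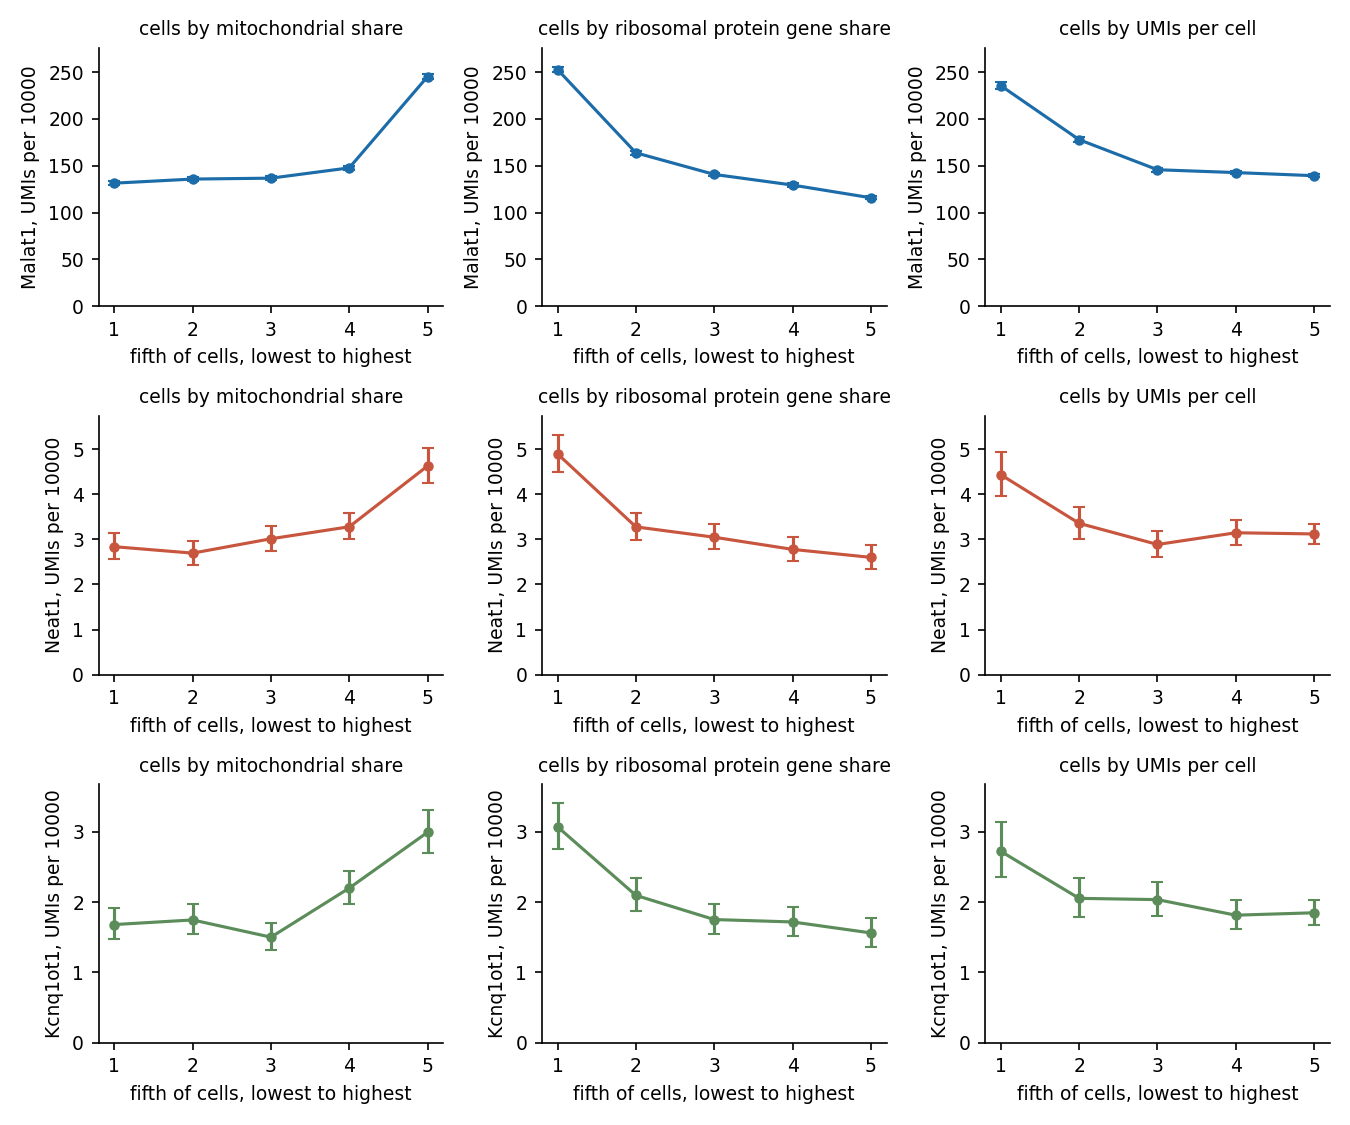
Pooled level of each RNA (rows; y axis, UMIs per 10000, from 0) in 5 groups of 411 cells ordered by mitochondrial share, ribosomal protein gene share or UMIs per cell (columns; x axis, lowest to highest group). Bars are exact Poisson 95% intervals. Malat1 stays between 131.5 and 147.8 over the first 4 mitochondrial groups and stands at 245.3 in the last.

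Neat1 and Kcnq1ot1 each stood higher in cells with a high Malat1 level, and the Spearman correlation of Neat1 with Kcnq1ot1 was 0.124. Their median UMIs per cell were 1 and 0, against 44 for Malat1. Such low counts limit a correlation between them, so it is not read as weaker than those with Malat1. Cells were ordered by their Malat1 level and split into 5 groups of 411, and levels were taken per 10000 UMIs other than Malat1. Neat1 stood at 2.17 (1.94 to 2.43), 2.56, 3.11, 3.47 and 5.68 (5.26 to 6.13), which is 2.61 times more in the last group than in the first. Kcnq1ot1 stood at 0.971 (0.818 to 1.14), 1.53, 1.76, 2.32 and 3.91 (3.56 to 4.29), a ratio of 4.03. Xist stood at 9.96 and 17.1 in the first and the last group, a ratio of 1.72. The summed share of the AM markers was between 3.65% and 3.86% of the other UMIs in all 5 groups.

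Other properties moved with Malat1 in these groups. The last group had 182 cells (44.3%) above 5% mitochondrial UMIs, against 42 to 63 in the other 4, and a median of 2543 UMIs outside Malat1, against 3392 in the first. Its median number of genes per cell was 1287, against 1470, but at an equal 2000 UMIs the 5 groups had 1024.5, 1033, 1035, 1049.5 and 1048 genes. With the groups formed within the cells at or under 5% mitochondrial UMIs, Neat1 stood at 2.18 (1.93 to 2.46) in the lowest and 4.25 (3.87 to 4.65) in the highest group by Malat1, a ratio of 1.95. Kcnq1ot1 stood at 0.954 (0.787 to 1.14) and 3.02 (2.71 to 3.36), a ratio of 3.17, and the ratio of Xist was 1.495. In these cells the Spearman correlation was 0.182 between Malat1 and Neat1, 0.198 between Malat1 and Kcnq1ot1 and 0.0822 between Neat1 and Kcnq1ot1, against 0.244, 0.252 and 0.124 over all cells. On the scaled scores, from which the authors had regressed UMIs per cell and mitochondrial content, the Pearson correlations were 0.261, 0.274 and 0.135.

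**Figure D4:**
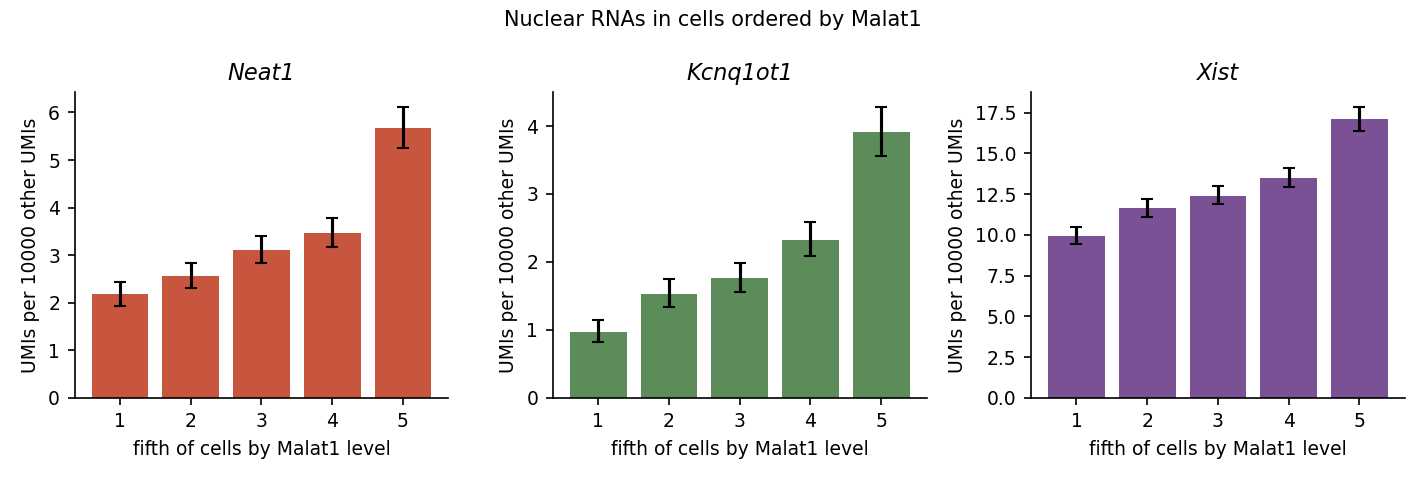
Pooled levels of Neat1, Kcnq1ot1 and Xist (y axis, UMIs per 10000 UMIs other than Malat1, from 0) in 5 groups of 411 cells ordered by Malat1 level (x axis, lowest to highest), with exact Poisson 95% intervals. Each of the 3 stands highest in the last group, at 5.68, 3.91 and 17.1.

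The link was also visible with each cell thinned to 2000 UMIs, which left 1756 cells and put 299 shallower ones aside. Malat1 stood at 138.4 UMIs per 10000 in 1009 cells with no Neat1 UMI, at 165.5 with 1, at 180.6 with 2 and at 227.1 (220.2 to 234.3) in 89 cells with 3 or more. By Kcnq1ot1 it stood at 140.5 in 1242 cells with none, then at 172.7, 204.7 and 309.5 (296.2 to 323.2) in 33 cells with 3 or more. In the 1485 thinned cells at or under 5% mitochondrial UMIs Malat1 went from 131.0 with no Neat1 UMI to 176.0 (169.0 to 183.2) with 3 or more, and from 130.7 with no Kcnq1ot1 UMI to 247.2 (230.8 to 264.5) in 17 cells with 3 or more. Of all 1756 thinned cells, whatever their mitochondrial share, 243 (13.8%) held both Neat1 and Kcnq1ot1, beside 12.5% as the product of their shares. Among those 1756 cells Malat1 stood at 210.5 where both were seen and at 127.6 where neither was.

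The cells at the ends of the Malat1 distribution were looked at 1 by 1. The 10 cells with the highest Malat1 level held 139 to 232 Malat1 UMIs among 1145 to 2427 in total, so they were shallow. All 10 were above 5% mitochondrial UMIs (5.77% to 21.6%), and their ribosomal protein gene share was 3.62% to 11.3%, under the library median of 14.1%. Neat1 was seen in 9 of them, Kcnq1ot1 in 4 and Xist in 9. At the other end, 6 cells held no Malat1 UMI among 1153 to 2913. Of their mitochondrial shares 4 were under 0.2% (0.0343%, 0.118%, 0.173% and 0.192%), and the other 2 were 3.78% and 9.48%. These 6 cells also held no UMI of Neat1 or Kcnq1ot1, and a single Xist UMI was found in 1 of them, while their ribosomal protein gene share was 13.2% to 20.5%. None of these 16 cells held 3 or more UMIs of the markers of another cell type.

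To find which genes resembled Malat1 most, the Pearson correlation across cells was taken on the log values with each of 2153 other genes seen in at least 20% of cells. At 0.1 or more stood 38 genes (1.76%), and at -0.1 or less stood 273 (12.7%). The highest were mt-Atp6 (0.363), mt-Co3 (0.340), mt-Co1 (0.323) and mt-Nd1 (0.307), subunits of the respiratory chain and ATP synthase encoded in the mitochondrial genome. They were followed by Xist (0.301), mt-Cytb (0.271), Kcnq1ot1 (0.268) and mt-Nd4 (0.259), and Neat1 came 9 in order (0.254). Of 12 mitochondrial genes measured, 10 were at 0.1 or more.

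The lowest were Tmsb4x (-0.349) and the ribosomal protein genes Rpl37a (-0.322), Rpl41 (-0.295), Rpl37 (-0.286), Rpl35a (-0.286), Rpl35 (-0.284), Rpl38 (-0.276) and Rpl39 (-0.276). Of 82 ribosomal protein genes measured, 76 were at -0.1 or less and 0 at 0.1 or more. From the lowest to the highest group by Malat1, Rpl37a stood at 62.5 and 49.6 UMIs per 10000 other UMIs, Rpl41 at 78.5 and 66.3, and mt-Atp6 at 70.7 and 131.4. In the correlations all values of a cell share its depth and its fixed sum, so a high share of Malat1 lowers the others there. The levels just given leave Malat1 out of the sum.

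The order of these genes changed within the 1671 cells at or under 5% mitochondrial UMIs, where the nuclear RNAs came before the mitochondrial genes. There Xist had the highest correlation with Malat1 of 2210 genes (0.261), Kcnq1ot1 came 4 (0.207) and Neat1 came 5 (0.184). Chosen after their values were seen, Abcg1, a cholesterol exporter, came 2 (0.251) and Slc15a3, a lysosomal peptide transporter, came 3 (0.222). The mitochondrial genes stood lower, mt-Atp6 at 0.180, mt-Co1 at 0.170 and mt-Cytb at 0.0778, with 4 of 12 at 0.1 or more, where 33 of all 2210 genes (1.49%) were. The ribosomal protein genes were nearer to 0 as well, with Rpl37a at -0.160 and 22 of 82 at -0.1 or less, where 79 of all genes (3.57%) were. The 5% limit is set on the sum of the mitochondrial genes and so narrows their range, here and below. The ribosomal protein gene share went with that sum (-0.418). The change of order is therefore not read as a trait of these genes.

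**Figure D5:**
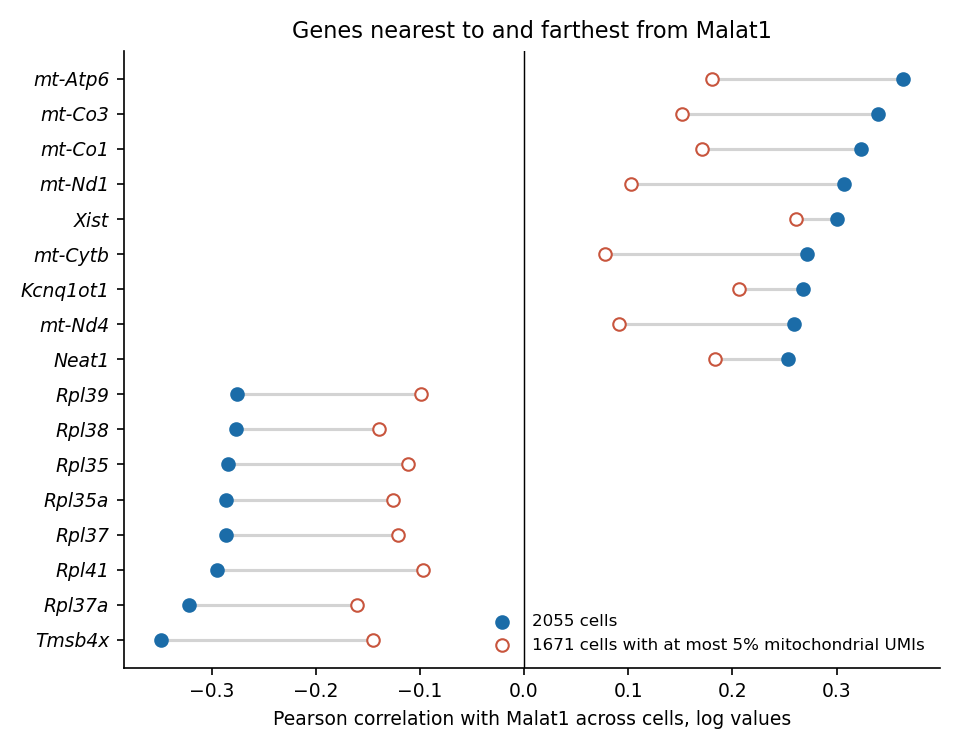
Pearson correlation with Malat1 across cells on log values (x axis) for the 8 highest and 8 lowest genes over all cells and for Neat1 (y axis). Filled points, all 2055 cells; open points, 1671 cells with at most 5% mitochondrial UMIs. Xist, Kcnq1ot1 and Neat1 shift least (0.301 to 0.261 for Xist), the mitochondrial and ribosomal protein genes more (0.340 to 0.151 for mt-Co3). The limit itself narrows the range of the mitochondrial genes.

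For Neat1, with fewer UMIs per cell, 24 of 2153 genes (1.11%) stood at 0.1 or more and 42 (1.95%) at -0.1 or less. Malat1 was the highest (0.254), followed by mt-Atp6 (0.182), mt-Nd4 (0.158), mt-Co3 (0.158) and mt-Cytb (0.1504). Kcnq1ot1 came 12 in order, at 0.136. The lowest were Tmsb4x (-0.162), Rpl41 (-0.161), Rpl34 (-0.155), Tmsb10 (-0.152) and Rpl37a (-0.148). Within the cells at or under 5% mitochondrial UMIs Malat1 was again the highest, at 0.184, while 0 of 12 mitochondrial genes stood at 0.1 or more, where 29 of 2210 genes (1.31%) did, and 0 of 2210 genes (0%) stood at -0.1 or less.

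Several immediate-early genes were among those above 0.1 with Neat1. The genes of that list are switched on quickly by stimuli and by tissue dissociation. Of the 21 measured, 6 stood at 0.1 or more with Neat1, where 1.11% of all genes did. The 6 were Nr4a1 (0.143), Egr1 (0.140), Junb (0.108), Dusp1 (0.107), Zfp36 (0.106) and Btg2 (0.1002). The median of the list was 0.0799, beside -0.00113 over all genes. Of the 3 with the most UMIs, Hspa8, a chaperone gene, stood at -0.00985, Fos at 0.0918 and Dusp1 as above. With Malat1 0 of the 21 reached 0.1, where 1.76% of all genes did, and the list median was -0.00110, beside -0.0158 over all genes. Within the cells at or under 5% mitochondrial UMIs 7 of the 21 stood at 0.1 or more with Neat1, where 1.31% of all genes did, and Egr1 (0.163) and Nr4a1 (0.157) came next after Malat1. At 2000 UMIs per cell 2 of 18 stood at 0.1 or more with Neat1, with a list median of 0.0487. There 11 of all 1374 genes did, with a median of -0.00459.

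Neat1 was also higher in cells rich in these transcripts. In the 103 cells (5%) with the highest share of UMIs on the immediate-early list, Neat1 stood at 6.15 UMIs per 10000 (5.35 to 7.03), 1.98 times the 3.10 (2.97 to 3.24) of the other cells. Malat1 stood at 168.3 there against 156.0, a ratio of 1.079, and Kcnq1ot1 at 2.16 (1.70 to 2.71) against 1.98. The mitochondrial share was no higher in these cells, with a median of 2.98% against 3.22%. As 112 cells lay within 10% of the share that defines the group, it is a range and not a cell type, and with the 10% of cells of highest share the Neat1 ratio was 1.73. It was 2.05 within the cells at or under 5% mitochondrial UMIs, at 5.77 (4.93 to 6.72) in 84 cells against 2.82. In the 103 cells highest in cytokine and chemokine genes, Neat1 stood at 4.46 (3.81 to 5.20) against 3.18, while Malat1 stood at 146.2 against 157.1.

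For Kcnq1ot1, 18 of 2153 genes (0.836%) stood at 0.1 or more and 20 (0.929%) at -0.1 or less. Malat1 was the highest (0.268), followed by mt-Cytb (0.158), mt-Nd1 (0.155), mt-Co3 (0.1496) and mt-Atp6 (0.149), and Neat1 came 6. The lowest were Rpl37a (-0.149), Rpl41 (-0.143), Rps28 (-0.130), Rps19 (-0.124) and Rpl17 (-0.123). At a mean of under 1 UMI per cell these correlations are weak, and at 2000 UMIs per cell 1 gene of 1374 stood at 0.1 or more. Within the cells at or under 5% mitochondrial UMIs Malat1 was again the highest, at 0.207, and 0 of 12 mitochondrial genes reached 0.1, where 5 of 2210 genes (0.226%) did.

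Genes of the bodies in which these RNAs lie were mostly within 0.1 of 0, as were most genes. Of 31 genes of nuclear speckles and splicing factors measured, Luc7l2 (0.117) and Tra2b (0.104) stood at 0.1 or more with Malat1 and Srsf3 (-0.115) at -0.1 or less, with a median of 0.0273 beside -0.0158 over all genes, of which 1.76% and 12.7% stood past these limits. Ddx5, an RNA helicase and the most abundant of the list, stood at 0.0220, and Rbm39, a splicing factor, at 0.0686. Of 13 paraspeckle protein genes 0 stood at 0.1 or more with Neat1 (median -0.000106), beside 1.11% of all genes, and the most abundant were Rbm3 (-0.00711), Hnrnpf (-0.0392) and Hnrnpk (-0.0432). Rbm3 stood at -0.106 with Malat1.

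Genes near the 3 loci and genes that degrade nuclear RNA were mostly seen in under 20% of cells and so not measured. Of the imprinted domain beside Kcnq1ot1, 5 of 11 genes were listed and Cd81, a tetraspanin, was measured, with a correlation of 0.0115 with Kcnq1ot1. Nap1l4 and Tspan32 were seen in 11.7% and 7.64% of cells. Of the genes beside Malat1 and Neat1, 13 of 15 were listed, and Ehbp1l1 was measured (0.0211 with Malat1 and 0.0172 with Neat1). Capn1 and Rela, which encodes a subunit of NF-κB, were seen in 19.95% and 12.1% of cells, under the limit of 20%. Of the nuclear exosome and its adaptors C1d (-0.0448 with Malat1) and Rbm7 (-0.0170) were measured, and Exosc3 was seen in 19.2% of cells. Of 40 other long noncoding RNAs 11 were listed, and those measured stood below 0 with Malat1, AW112010 at -0.123 and 1810058I24Rik at -0.0576, while Snhg6 was seen in 10.0% of cells.

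Transcript length moved with the correlation with Malat1. Outside mitochondrial and ribosomal protein genes, the longest annotated transcript had a median of 5658.5 bases for the 28 genes at 0.1 or more, of 1164.5 bases for 192 of the 197 genes at -0.1 or less and of 2857.5 bases for 2014 of the 2059 genes measured. The genes also differed in level, with medians of 2.78, 4.93 and 1.41 UMIs per 10000. The median lengths within the cells at or under 5% mitochondrial UMIs were 5861 bases for 29 genes, 1223.5 for 56 of 57 genes and 2849 for 2068 of 2116. The part of length and level was not tested.

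Malat1 was lower in cells rich in cell cycle transcripts. In the 103 cells with the highest share of UMIs on 20 G2/M phase genes it stood at 101.7 UMIs per 10000 (98.7 to 104.6), 0.634 of the 160.3 (159.3 to 161.2) in the other cells. Kcnq1ot1 stood at 1.32 (1.01 to 1.70) against 2.04 (1.93 to 2.15), and Neat1 at 2.91 (2.43 to 3.45) against 3.27 (3.14 to 3.41), where the intervals overlap. In the 103 cells highest in 20 S phase genes Malat1 stood at 104.1 (101.2 to 107.1) against 160.1, a ratio of 0.650. Within the cells at or under 5% mitochondrial UMIs the ratio of Malat1 was 0.618 in the G2/M and 0.685 in the S phase group. Cells of the G2/M group were deeper, with a median of 4211 UMIs against 3234, and had a median mitochondrial share of 2.82% against 3.23%. Of the genes of these lists Pcna (-0.0790), Slbp (-0.0394), Hmgb2 (-0.0825) and Cks2 (-0.0808) were measured against Malat1, while Dut and Birc5 were seen in 14.4% and 8.32% of cells.

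In the 103 cells highest in MHC class II genes Malat1 stood at 143.8 (140.0 to 147.6) against 157.3 and Neat1 at 2.46 (1.99 to 3.00) against 3.29 (3.16 to 3.43), with ratios of 0.954 for Malat1 and 0.764 for Neat1 in the cells at or under 5% mitochondrial UMIs. Cd74, the invariant chain, stood at -0.0156 with Malat1, and H2-DMa at -0.0581. Of the cytokine and chemokine list Ccl6 (-0.0873), Cxcl2 (-0.0163) and Ccl3 (-0.0814) were likewise below 0.1 in size with Malat1. H2-Ab1 was seen in 19.2% of cells.

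The summed share of the markers of other cell types had a Spearman correlation with Malat1 between -0.0354 and 0.0201 over 4 lists. Monocyte and interstitial macrophage markers (7 of 10 listed) were seen in 4.09% of cells and granulocyte markers (2 of 7, S100a8 and Csf3r) in 12.7%. Epithelial markers (10 of 10) were seen in 66.5%, mainly through Epcam (58.1%), whereas Cdh1 was seen in 10.6% and Sftpc in 6.86%. Of 9 lymphocyte markers Jchain, Cd79a and Ms4a1 were listed and seen in 3.55% of cells. Their level was 0.0820 UMIs per 10000 in the lowest and 8.14 in the highest group by Malat1, and 1 cell of the highest group held 940 of the 1006 Jchain UMIs. That cell had a Malat1 level of 248.0 per 10000 and a mitochondrial share of 1.95%. No erythroid marker of 5 was listed. In all, 392 cells held 3 or more UMIs of any of these lists. The epithelial list alone gave 376 such cells, against 14 for granulocyte, 5 for monocyte and 2 for lymphocyte markers. As that list was mainly Epcam, the 392 are not a count of cells of another type. Without them Malat1 took 1.59% of UMIs, against 1.57% with them, which cannot show the part of foreign cells.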

How the data were processed

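Single cells of 1 WT library of sorted alveolar macrophages were used. Per the labels and methods, the authors made 10x 3′ libraries, ran Cell Ranger and Seurat against mm10, and deposited natural log values, ln(1 + UMIs per 10000). They also deposited scaled scores, from which UMIs per cell and mitochondrial content had been regressed. From the steps of the log values whole UMIs were recovered for 100% of values (tolerance 0.001), at 1143 to 8603 per cell. Pooled levels carry exact Poisson 95% intervals, and shares exact binomial ones, which cover counting error alone. Correlations across cells were Spearman for the members and Pearson on log values between genes. Cells were thinned to 2000 UMIs with a fixed seed. With 1 library no test was run. No doublet caller was run. Repeats within cells of at most 5% mitochondrial UMIs, other than those of the member correlations and shares, were added after seeing the data. The members and gene lists were chosen with earlier results of these data known. Genes named were the 8 highest and 8 lowest in correlation with Malat1, the 5 highest and 5 lowest for Neat1 and Kcnq1ot1, and per list the 3 with the most UMIs. List genes past 0.1 and the leading genes in cells of low mitochondrial share were named after their values were seen. Sequences came from GENCODE M21. The scripts were tested on simulated data and used Python 3.11.15, numpy 2.4.6, scipy 1.17.1, pandas 2.3.3 and matplotlib 3.10.9.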

Additional observations from a re-analysis of the deposited data

How the results depend on the processing

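Of 87 recomputed correlations of the 3 RNAs, 78 moved by no more than 0.1. Several of them were themselves near 0.1 in size, so this limit cannot show that they were stable. Neat1 with the mitochondrial share counted as unmoved at 0.149 in all cells and 0.0503 in those at or under 5%. In cells with at most 5% mitochondrial UMIs the share of UMIs was 1.39% for Malat1, 0.0296% for Neat1 and 0.0179% for Kcnq1ot1. Counted among UMIs outside mitochondrial and ribosomal protein genes it was 1.91%, 0.0396% and 0.0242%, and as a mean of cells 1.70% for Malat1 and 0.0341% for Neat1. Without the cells that held 3 or more UMIs of a marker list of another type, mostly the epithelial list, Malat1 took 1.59%. The correlation of Malat1 with the mitochondrial share was 0.404 on log values, 0.384 with a constant of 0.1 and 0.0662 in the cells at or under 5%, where that with the ribosomal protein gene share was -0.217. Neat1 with depth gave 0.117 with the constant of 0.1. In the cells with a UMI of the RNA, where 1 UMI sets the lowest level, it gave -0.465, and Kcnq1ot1 gave -0.578 with depth and -0.262 with the ribosomal protein gene share. In the 579 cells with both RNAs Neat1 and Kcnq1ot1 correlated at 0.382. There the depth of a cell sets the lowest level of both, so this value is not read as a link between them. The correlation was 0.124 in all cells and 0.0723 at 2000 UMIs per cell.

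At 2000 UMIs per cell 1374 genes were measured, and 98 stood at -0.1 or less with Malat1, 11 at 0.1 or more and 0 at -0.1 or less with Neat1, and 1 and 3 with Kcnq1ot1. In the cells at or under 5%, an alternative chosen after seeing the data, 79 of 2210 genes stood at -0.1 or less with Malat1 and 0 with Neat1, and 5 at 0.1 or more and 0 at -0.1 or less with Kcnq1ot1. Of 36 correlations of named genes 13 moved by over 0.1 at 2000 UMIs. For 4 of 15 levels in groups of cells, the level with 10% of cells lay outside the counting interval of that with 5%, and the ratio of Malat1 in the S phase group was then 0.798. The cause was not tested. Neat1 and Kcnq1ot1, at a median of 1 and 0 UMIs per cell, are limited by depth, and 1 library gives no error between animals. No paired analysis was possible because there is 1 library.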

Other observations

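Some markers of AMs were among the genes most like Malat1. Of 21 measured, 6 stood at 0.1 or more, where 1.76% of all genes did: Abcg1 (0.193), a cholesterol exporter, Mrc1 (0.162), the mannose receptor, Ctsd (0.137), a lysosomal protease, Itgax (0.110), Mpeg1 (0.107), a pore-forming protein of macrophages, and Lpl (0.101), lipoprotein lipase. The fatty acid carrier gene Fabp5 (-0.134) and the tetraspanin gene Cd9 (-0.112) stood at -0.1 or less, a share of the list near the 12.7% of all genes, Chil3 (-0.0958) and Ear2 (-0.0962) were just short of that, and the list median was 0.00265, beside -0.0158 over all genes. From the lowest to the highest group by Malat1, Abcg1 stood at 9.502 (9.01 to 10.0) and 15.3 (14.6 to 16.0) UMIs per 10000 other UMIs, whereas Cd9 stood at 75.7 (74.3 to 77.1) and 65.5 (64.1 to 67.0). In the cells at or under 5% mitochondrial UMIs Abcg1 stood at 0.251, above its value in all cells, and 2 of the 21 markers stood at 0.1 or more and 3 at -0.1 or less, beside 1.49% and 3.57% of all genes. There the lowest genes with Malat1, chosen after their values were seen, were Ppia (-0.196), which encodes cyclophilin A, and Chil3 (-0.176), a chitinase-like protein abundant in AMs. At 2000 UMIs per cell 3 of 20 markers stood at 0.1 or more with Malat1 and 2 at -0.1 or less, where 28 and 98 of 1374 genes did. The list median there was -0.00242, beside -0.00815 over all genes. The longest transcript of the 6 markers named first was 2127 (Ctsd) to 5832 bases (Abcg1), against 3238 for Fabp5 and 1228 for Cd9. The part of length was not tested. With Kcnq1ot1 over all cells, Mrc1 stood at 0.1004, the 1 marker of the 21 at 0.1 or more.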
